A study of Sus scrofa with 4 samples.

Results

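Barcodes with the transcripts of natural killer (NK) cells and no CD3 transcript were selected from regenerated bone of pigs, and they numbered 369 of the 50935 barcodes kept. A barcode, which stands for 1 droplet and nominally 1 cell, was kept with at least 200 genes and under 20% of its unique molecular identifiers (UMIs) in 13 mitochondrial genes. It was counted as NK if it held at least 1 UMI of at least 3 of the 7 cytotoxic genes NCR1, KLRB1, KLRK1, NKG7, PRF1, GZMA and GNLY, no UMI of the T cell genes CD3D, CD3E and CD3G, and none of CD79B, MS4A1 (B cells), CSF1R (macrophages), MS4A2 (mast cells and basophils) or CXCR2 (neutrophils). These 15 genes were measured in the same barcodes, so their levels in the NK barcodes are a description of the selection. The closest population was taken as CD3-positive cytotoxic barcodes, which met the same rule but held at least 1 CD3 UMI, and these numbered 1393.

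Bama mini-pigs, a small breed of Sus scrofa, were 8 months old, and their regenerated bone was digested with type I collagenase and freed of red blood cells by lysis. Single-cell libraries were made with 10x Genomics 3′ chemistry. A group given the 1797 peptide and a group given a control peptide had 2 libraries each, and other samples of the control group were not analysed here. No source used here states the peptides' sequences, the doses, the times or whether each library stands for an animal of its own, so p-values measure only the spread between these libraries, which may be technical.

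NK cells are innate lymphocytes that kill infected or transformed cells with granule proteins such as perforin (PRF1) and granulysin (GNLY) and that make interferon gamma and chemokines. Their activating receptors, among them NKp46 (NCR1), NKG2D (KLRK1) and the Fc receptor CD16 (FCGR3A), lack signalling tails of their own and signal through small adaptors. The adaptors DAP12 (TYROBP) and the Fc receptor gamma chain (FCER1G) recruit the kinase SYK, while DAP10 (HCST) is an adaptor of NKG2D. Pig NK cells are known as CD3-negative cells that carry CD8 alpha and perforin and that hold NKp46-positive and NKp46-negative cells, whereas T cells signal through the T cell receptor and its CD3 chains.

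The 4 libraries held 12133 to 14496 barcodes and 87844389 to 98758412 UMIs each. The median NK barcode held 6597, 7073, 6886.5 and 6909 UMIs in 1797 library 1, 1797 library 2, control library 1 and control library 2, and values for the 4 libraries are given in this order throughout. The CD3-positive cytotoxic barcodes were a little deeper, at medians of 7099.5, 7078, 7467 and 7906 UMIs. In all, 305 barcode sequences occurred in more than 1 library, 4 of them among the NK barcodes, and none was an NK barcode in both libraries. A doublet caller marked 9 of the 369 NK barcodes.

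NK barcodes were scarce in every library and differed more between the libraries of a group than between the groups. They made up 1.09% of the kept barcodes of 1797 library 1 (136 of 12534, 95% Wilson interval 0.918% to 1.28%), 0.396% of 1797 library 2 (52 of 13145, 0.302% to 0.518%), 1.01% of control library 1 (136 of 13401, 0.859% to 1.20%) and 0.380% of control library 2 (45 of 11855, 0.284% to 0.507%). The intervals cover counting error only. The mean share was 0.740% ± 0.488 (SD, n = 2) in the 1797 group and 0.697% ± 0.449 (SD, n = 2) in the control group, a difference of 0.0431 percentage points (two-sided exact permutation test, p = 0.667). The smallest p that 2 against 2 libraries can give is 0.333. In each group library 1 was high and library 2 was low, and the groups overlapped.

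The CD3-positive cytotoxic barcodes did not follow the same order. They made up 2.43% and 1.22% of the kept barcodes for the 1797 peptide and 4.35% and 2.92% for the control peptide. As a result the NK barcodes were a larger part of all cytotoxic barcodes in the 1797 libraries, at 30.9% (95% Wilson interval 26.8% to 35.4%) and 24.5% (19.2% to 30.7%), than in the control libraries, at 18.9% (16.2% to 21.9%) and 11.5% (8.71% to 15.1%). The groups did not overlap in this share, at 27.7% ± 4.51 against 15.2% ± 5.24 (SD, n = 2 each), and the exact permutation p of 0.333 is the smallest the design allows. The cytotoxic barcodes with at least 3000 UMIs (425, 206, 708 and 383) were also thinned to 3000 UMIs. Of these, 51.1%, 35.9%, 34.0% and 23.0% then had no CD3 UMI. Barcodes with 0 or 1 CD3 UMI made up 52.5%, 34.9%, 32.3% and 19.9% of the cytotoxic barcodes. In both of these versions 1797 library 2 stood close to control library 1. Part of the NK barcodes can be T cells in which CD3 transcripts went undetected, and how large that part is was not tested.

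**Figure D1:**
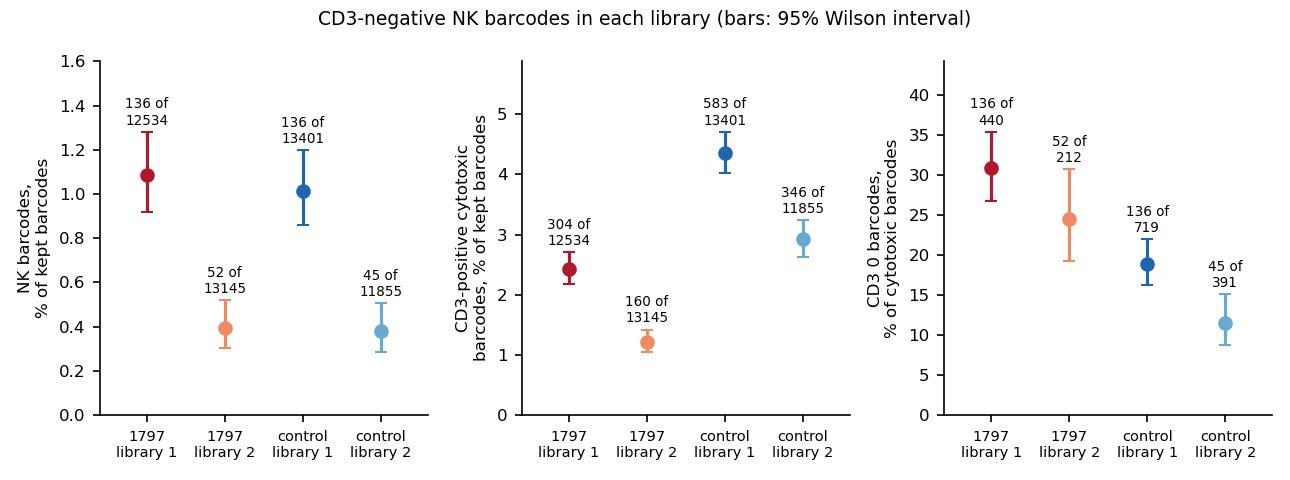
Shares of barcodes in each library (points) with 95% Wilson intervals (bars): NK barcodes and CD3-positive cytotoxic barcodes as a percentage of kept barcodes, and barcodes with a CD3 count of 0 as a percentage of all cytotoxic barcodes. The NK share was 1.09% and 0.396% with the 1797 peptide against 1.01% and 0.380% with the control peptide, while the share with a CD3 count of 0 was 30.9% and 24.5% against 18.9% and 11.5%.

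Of the genes used for selection, 6 of the 7 cytotoxic genes were seen in most NK barcodes. KLRK1, which encodes NKG2D, had a UMI in 337 of 369 NK barcodes (91.3%), and NKG7, which encodes a granule membrane protein, in 281 (76.2%). GNLY was seen in 257 (69.6%), PRF1 in 237 (64.2%), KLRB1, which encodes the lectin-like receptor CD161, in 214 (58.0%), and NCR1 in 190 (51.5%). GZMA, which encodes granzyme A, was near absent in these counts, with a UMI in 4 NK barcodes and in 47 of the 1393 CD3-positive cytotoxic barcodes, so the choice rested in effect on the other 6 genes.

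In B and CXCR2-positive barcodes, taken as cells that should lack these genes, the shares were far lower. Whether the UMIs seen there came from free RNA, doublets or expression was not tested. In B barcodes (CD79B and MS4A1 both detected, no CD3, n = 2340, medians of 9537 to 12158 UMIs) the shares ran from 0.556% for NCR1 and 0.598% for KLRB1 to 4.23% for GNLY and 6.20% for NKG7. In CXCR2-positive barcodes (n = 6979, medians of 1683 to 2287 UMIs) they were 0.373% for NCR1, 0.802% for KLRB1, 1.71% for GNLY and 4.33% for NKG7. With barcodes of at least 1000 UMIs thinned to 1000, NCR1 was seen in 19.02% of NK barcodes and 0.171% of B barcodes. KLRB1 was seen in 26.4% and 0.0428%.

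Of the 6 genes, NCR1 and KLRB1 were seen more often in NK than in CD3-positive cytotoxic barcodes, while the granule genes were seen at like shares. NCR1 was seen in 51.5% of NK and 22.6% of CD3-positive cytotoxic barcodes (19.02% and 6.18% after thinning), and KLRB1 in 58.0% and 15.9% (26.4% and 6.68%). NKG7 was seen in 76.2% and 81.4%, PRF1 in 64.2% and 72.9% and GNLY in 69.6% and 75.4%, and after thinning these were 22.8% and 19.7%, 15.5% and 15.4%, and 47.6% and 50.2%. In the summed counts of the NK barcodes of a library NCR1 stood at 235, 451, 230 and 402 CPM (the counts-per-million unit, a gene's UMIs scaled by all UMIs of the summed barcodes), against 81.2, 71.4, 45.1 and 54.2 CPM in the CD3-positive cytotoxic sums. KLRB1 stood at 279, 544, 337 and 393 CPM against 124, 101.8, 59.5 and 43.4 CPM. Library 2 of each group had the higher NCR1 and KLRB1 levels in NK sums, and no NK value overlapped a CD3-positive value for either gene. These genes were part of the rule and carry no test.

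**Figure D2:**
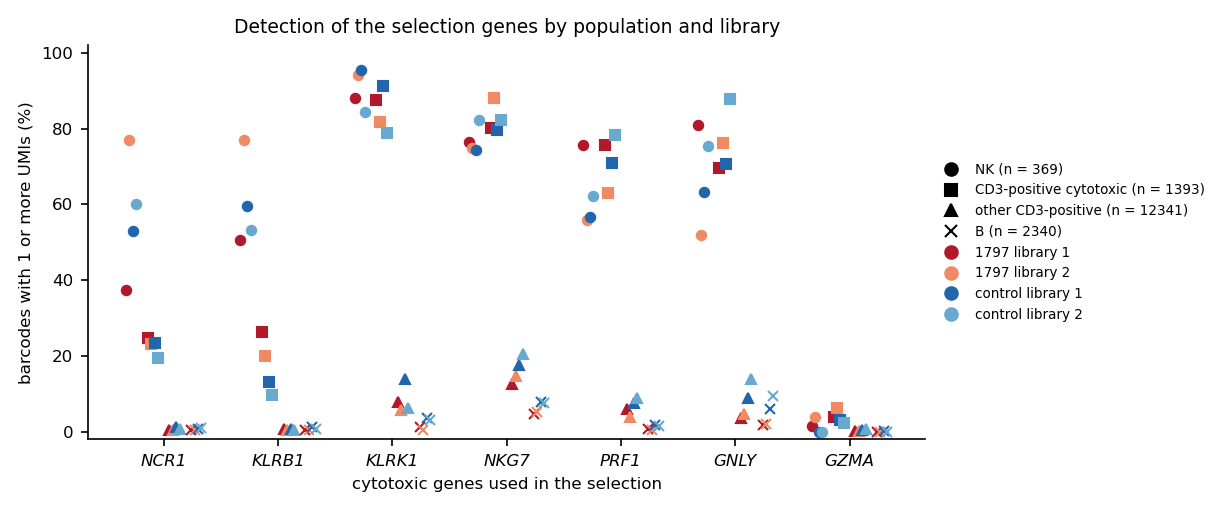
Percentage of barcodes with at least 1 UMI of each cytotoxic gene used in the selection, by population (symbol) and library (colour). KLRK1, NKG7, PRF1 and GNLY were seen at like shares in NK and CD3-positive cytotoxic barcodes, NCR1 and KLRB1 more often in NK barcodes (51.5% against 22.6% and 58.0% against 15.9% over all libraries), and GZMA in 4 of 369 NK barcodes.

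The threshold of 3 cytotoxic genes divided barcodes that differed in more than the genes of the rule, and the values on either side are given as a description. There were 221 CD3-negative barcodes with 2 of the 7 genes, just outside, and 115 with 3, just inside. CCL5, the chemokine of cytotoxic lymphocytes, had a UMI in 66.5% of the former and 98.3% of the latter. CTSW, a protease of cytotoxic cells, was seen in 38.0% and 80.9%, and IL2RB, a chain of the interleukin 2 and interleukin 15 receptors, in 43.0% and 83.5%. After thinning to 1000 UMIs these shares were 48.4% and 89.5% for CCL5, 14.7% and 31.6% for CTSW, and 18.9% and 43.9% for IL2RB. A further 133 NK barcodes held 4 of the genes, 84 held 5, 36 held 6 and 1 held all 7.

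Outside the rule, nearly all NK barcodes carried the chemokine and protease transcripts of cytotoxic lymphocytes. CCL5 was seen in 367 of 369 NK barcodes, at 4368, 6364, 5332 and 4672 CPM, IL2RB in 340 at 932, 917, 725 and 456 CPM, and CTSW in 329 at 379, 572, 544 and 487 CPM. In B barcodes CCL5 was seen in 22.8%, IL2RB in 20.5% and CTSW in 4.53%. FCGR3A, which encodes CD16, was seen in 266 NK barcodes, but its level was 171 CPM in 1797 library 1 and 557, 527 and 573 CPM in the other libraries. The same library was low in FCGR3A among CD3-positive cytotoxic barcodes, at 238 CPM against 510, 504 and 618 CPM, so the low value was seen in both populations. FCGR3A, TYROBP and FCER1G are also carried by neutrophils, and 72.1% of the CXCR2-positive barcodes held a TYROBP UMI.

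Transcription factors and effector genes were seen in smaller parts of the NK barcodes. TBX21, which encodes T-bet, had a UMI in 183 of 369 (49.6%), although 33.4% of B barcodes held it too, and EOMES, its relative in NK cell development, in 50 (13.6%) against 0.128% of B barcodes. The chemokine gene XCL1 was seen in 96 NK barcodes, IFNG in 45, GZMB in 42, KLRD1 (CD94) in 49, KLRF1 (NKp80) in 23, IL7R in 46 and KIT in 15. CD2 was seen in 188 and CD8A, which is used to define pig NK cells, in 155 (42.0%), the latter at 122, 106, 111 and 45.6 CPM. CD8A is also a gene of T cells, and the share in B barcodes was 3.42%. No NK barcode held a UMI of IL17A, IL17F, IL13 or CSF2, cytokines of other innate lymphoid cells and T cells, and a count of 0 in 369 barcodes allows a share with a UMI of up to 0.813%.

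Cells in division were a small part of the NK barcodes, as they were of the CD3-positive barcodes. Barcodes with at least 5 of 27 cell cycle genes made up 5.15%, 5.77%, 5.15% and 4.44% of the NK barcodes of the 4 libraries (7 of 136, 3 of 52, 7 of 136 and 2 of 45). They made up 8.55%, 6.25%, 12.3% and 9.25% of the CD3-positive cytotoxic barcodes. In other CD3-positive barcodes, with fewer than 3 of the 7 cytotoxic genes, the shares were 3.42%, 4.34%, 5.12% and 8.34%. The proliferation gene MKI67 had a UMI in 15 NK barcodes and TOP2A, the topoisomerase of dividing cells, in 30.

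Transcripts of other cell types were present in the NK sums and unevenly spread over libraries. The summed level of 8 stromal and osteoblast markers was 4817, 699, 1014 and 1462 CPM, and that of 6 erythroid markers was 3308, 80.3, 513 and 59.9 CPM. In 1797 library 1 a single NK barcode held 3432 of the 3688 stromal UMIs, and another held 1784 of the 3251 UMIs of HBB, the haemoglobin beta chain. Barcodes with at least 50 UMIs of either kind numbered 8 in 1797 library 1, 1 in control library 1 and 0 in the other libraries. The summed levels of 8 B cell markers were 49.998, 15.5, 23.1 and 259 CPM, with CD79B and MS4A1 at 0 by the rule. Those of 10 macrophage and monocyte markers were 40.0, 12.9, 84.9 and 71.3 CPM, with CSF1R and MS4A7 at 0, and those of 9 neutrophil markers were 249, 264, 318 and 607 CPM, with CXCR2 at 0. Those of 8 dendritic cell markers were 149, 163, 192 and 396 CPM, with CLEC9A and FCER1A at 0. Of the 6 mast cell and basophil markers, CPA3, HDC, HPGDS and MS4A2 were at 0. For the peptide comparison, several genes are also given without the barcodes that carry stromal or HBB transcripts.

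The summed NK counts of each library were compared with the summed CD3-positive cytotoxic counts of the same library, to see what sets the CD3-negative cells apart beyond CD3 itself. NK sums were higher in the DAP12 and Fc gamma chain adaptors and in the signalling genes SYK, SH2D1B, TXK and PLCG2, in the inhibitory receptor gene KIR2DL1, in both chains of the interleukin 18 receptor and in KIT, CXCR6 and RGS1. They were lower in the T cell genes CD5, CD6, THEMIS, BCL11B, ICOS and CD8B, in the T cell receptor signalling genes GRAP2 and PLCG1, in BLK and in S1PR1. The granule genes, cytokines and transcription factors on the lists held no gene that passed the test. In edgeR's quasi-likelihood test with library as a term, 71 of 7497 genes were higher (0.947%) and 33 were lower (0.44%) at a Benjamini-Hochberg adjusted p under 0.05. At an unadjusted p under 0.05 there were 897 genes, and DESeq2 called 166, among them 101 of the 104. Without 1797 library 2 the count was 38, without control library 1 it was 41 and without control library 2 it was 56.

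The adaptor and proximal kinase genes through which NK receptors signal held the most calls of the 15 gene lists. Of 24 genes tested, 8 rose and 2 fell, and the median log2 fold change was 0.28, against 0.0006 over all genes tested. TYROBP (chromosome 6, 45309199 to 45312562, in RefSeq coordinates of Sscrofa11.1) stood at 87.0, 161, 118 and 120 CPM in the NK sums. It stood at 45.1, 41.0, 43.2 and 47.7 CPM in the CD3-positive cytotoxic sums. All 4 NK values lay above all 4 CD3-positive values, and the log2 fold change was 1.43 ± 0.19 (SE, n = 4 libraries, edgeR adjusted p = 0.00517). FCER1G (chromosome 4, 89242467 to 89246344) stood at 159, 192, 159 and 180 CPM against 101.8, 88.9, 96.4 and 106 CPM, again without overlap, and its log2 fold change was 0.82 ± 0.14 (edgeR adjusted p = 0.0167).

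Kinases and other signalling genes of the list rose too, all by less than TYROBP apart from SH2D1B. SYK, the kinase that binds phosphorylated adaptors, stood at 165, 168, 159 and 182 CPM against 108, 88.9, 79.5 and 76.1 CPM, a log2 fold change of 0.96 ± 0.14 (edgeR adjusted p = 0.00761). SH2D1B, which encodes EAT-2, an adaptor of SLAM family receptors in NK cells, stood at 54.0, 64.7, 55.6 and 105 CPM against 26.4, 20.5, 13.2 and 9.47 CPM, a log2 fold change of 2.03 ± 0.34 (adjusted p = 0.0156). TXK, a Tec family kinase, rose by 0.71 ± 0.10 on the log2 scale, LCP2 (SLP-76, a scaffold of the signalling complex) by 0.72 ± 0.11, PLCG2 (phospholipase C gamma 2) by 0.50 ± 0.09 and VAV3 (a guanine nucleotide exchange factor) by 0.55 ± 0.11, with edgeR adjusted p of 0.00604, 0.00907, 0.0228 and 0.0327. In contrast PLCG1, the phospholipase C of T cell receptor signalling, was at 3.00, 2.59, 2.10 and 8.55 CPM against 16.3, 21.3, 17.3 and 21.6 CPM, and its log2 fold change was -2.36 ± 0.42 (edgeR adjusted p = 0.0213). The smallest NK sum held 350814 UMIs, so the PLCG1 levels in NK rest on few UMIs and lie near the floor. GRAP2 (GADS, an adaptor that links LAT to SLP-76 in T cells) was at 17.0, 20.7, 19.9 and 28.5 CPM against 77.7, 50.1, 61.6 and 81.3 CPM, a log2 fold change of -1.68 ± 0.23 (edgeR adjusted p = 0.00521). NK and CD3-positive values did not overlap for either gene.

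Several adaptor genes did not pass the test. HCST, the DAP10 adaptor of NKG2D, stood at 86.0, 135, 99.6 and 114 CPM against 68.8, 48.6, 49.4 and 91.1 CPM, a log2 fold change of 0.78 ± 0.21 (edgeR adjusted p = 0.118). CD247, the CD3 zeta chain that NK and T cells both use, stood at 106, 129, 129 and 54.2 CPM against 153, 182, 185 and 212 CPM, a log2 fold change of -0.75 ± 0.22 (edgeR adjusted p = 0.159). Of the calls on the list, TYROBP and GRAP2 held without any single library. SYK, SH2D1B, TXK, LCP2, FCER1G, VAV3, PLCG2 and PLCG1 lost the call without 1797 library 2 and without control library 1, FCER1G and PLCG2 also without control library 2, and VAV3, PLCG2 and PLCG1 also without 1797 library 1. When 4 of the 7 cytotoxic genes were asked for, FCER1G, SYK, SH2D1B, PLCG2 and GRAP2 lost the call, and with only barcodes holding fewer than 3 stromal UMIs SYK and PLCG2 did. TYROBP kept its call in all 15 alternatives in which it could be tested.

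Of the 14 genes tested on the NK receptor list, KIR2DL1 was the only gene called. It lies on chromosome 6 (59056497 to 59068225) and belongs to the family of killer cell immunoglobulin-like receptors, whose copies are near-identical and polymorphic, so the assignment of its reads to this gene is uncertain. KIR2DL1 stood at 35.0, 77.7, 49.3 and 74.1 CPM in NK sums and at 10.5, 3.80, 4.47 and 9.80 CPM in CD3-positive cytotoxic sums. The values did not overlap, and the log2 fold change was 3.00 ± 0.37 (SE, n = 4 libraries, edgeR adjusted p = 0.00517), which held in all 15 alternatives in which it could be tested. KIR2DL1 was seen in 0.171% of B barcodes and 0.459% of CXCR2-positive barcodes. The list median was -0.03. KLRD1 stood at 16, 54.4, 55.6 and 57.0 CPM against 28.7, 26.6, 30.7 and 20.6 CPM and did not pass (edgeR adjusted p = 0.483). LY49, a lectin-like receptor gene that is not on that list and was named for its fold change, was called in the other direction, at 8.00, 10.4, 39.8 and 31.4 CPM against 45.4, 49.4, 75.8 and 126 CPM. NK values were under the CD3-positive value in 4 of 4 libraries, with a log2 fold change of -1.70 ± 0.28 (edgeR adjusted p = 0.0148), a call that was lost without 1797 library 2 or control library 2.

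Among 23 cytokine receptor genes 4 rose and 0 fell (median 0.15). IL18R1 and IL18RAP, neighbours on chromosome 3 (51803383 to 51844758 and 51762111 to 51794552), encode the 2 chains of the receptor through which interleukin 18 drives interferon gamma in NK cells. IL18R1 stood at 76.0, 109, 111 and 205 CPM against 52.4, 29.6, 29.9 and 50.9 CPM, a log2 fold change of 1.58 ± 0.24 (edgeR adjusted p = 0.00903). IL18RAP stood at 10.0, 33.7, 17.8 and 34.2 CPM against 3.50, 3.80, 5.44 and 2.29 CPM, a log2 fold change of 2.45 ± 0.43 (edgeR adjusted p = 0.0220). IL6R, a receptor chain for interleukin 6, rose by 1.27 ± 0.21 on the log2 scale. KIT, the stem cell factor receptor of innate lymphoid cells and mast cells, rose by 1.73 ± 0.35. The KIT level rests on few NK barcodes, with a UMI in 3, 3, 6 and 3 of them by library. For all 4 genes NK values lay above the CD3-positive value of the same library in 4 of 4 libraries. IL18R1, IL18RAP, IL6R and KIT all lost the call without 1797 library 2 and without control library 2, and the other 3 genes than IL6R also without control library 1. IL18R1 is carried by neutrophils too, with a UMI in 8.97% of CXCR2-positive barcodes. Of 5 genes of other innate lymphoid cells 2 rose, KIT and NRP1, a semaphorin and growth factor co-receptor, at 138, 256, 65.0 and 325 CPM against 57.9, 66.8, 32.5 and 72.2 CPM (log2 fold change 1.62 ± 0.20, edgeR adjusted p = 0.00517). The NRP1 call was lost when 4 cytotoxic genes were asked for and without the barcodes holding at least 50 stromal or HBB UMIs. IL7R, a further gene of that list, was at 38.0, 153, 66.1 and 120 CPM against 40.4, 115, 53.7 and 134 CPM.

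Homing genes split in direction. CXCR6, a chemokine receptor of tissue-resident lymphocytes, stood at 16, 18.1, 50.3 and 31.4 CPM against 6.99, 8.35, 8.17 and 9.47 CPM, a log2 fold change of 1.82 ± 0.34 (edgeR adjusted p = 0.0278). S1PR1, the sphingosine 1-phosphate receptor by which lymphocytes leave tissues, stood at 46.0, 33.7, 49.3 and 51.3 CPM against 134, 125, 96.1 and 157 CPM, a log2 fold change of -1.42 ± 0.19. The 4 values of each gene did not overlap between the populations. RGS1, a regulator of chemokine receptor signalling, rose by 0.53 ± 0.10 on the log2 scale (edgeR adjusted p = 0.0351). Of the 20 homing and residency genes tested, these 2 rose and 1 fell, with a median of 0.11. S1PR1 kept its call in all 15 alternatives in which it could be tested, CXCR6 lost it without 1797 library 2, control library 1 or control library 2, and RGS1 lost it without any of the 4 libraries and without called doublets.

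T cell genes were lower in NK sums, and since CD3 UMIs set the split, this describes the split and is no independent support for it. Of 16 T cell identity genes tested 6 fell and 0 rose, with a median of -1.09. CD5 (chromosome 2, 10648973 to 10673479), an inhibitory co-receptor of T cells, stood at 16, 12.9, 17.8 and 45.6 CPM against 65.3, 118, 65.9 and 110 CPM, a log2 fold change of -1.95 ± 0.26 (edgeR adjusted p = 0.00517). CD6 (chromosome 2, 10739560 to 10785548), its neighbour and relative, stood at 30.0, 49.2, 44.0 and 99.8 CPM against 86.6, 169, 93.3 and 192 CPM, a log2 fold change of -1.28 ± 0.17 (edgeR adjusted p = 0.00538). For both genes control library 2 had the highest NK value, and the CD6 values of the populations overlapped across libraries though not within them. THEMIS, needed for thymocyte selection, fell by 2.16 ± 0.28 on the log2 scale, ICOS (a costimulatory receptor) by 2.14 ± 0.41, CD8B (the beta chain that marks CD8 alpha beta T cells) by 2.13 ± 0.37 and BCL11B (a transcription factor of T cell commitment) by 1.19 ± 0.22. BCL11B fell least of the 6 genes, at 164, 72.5, 156 and 65.6 CPM against 256, 284, 291 and 248 CPM. BLK, a Src family kinase of B cells and of a subset of T cells, stood at 19.999, 15.5, 13.6 and 19.95 CPM against 48.2, 77.5, 48.4 and 68.6 CPM (log2 fold change -1.70 ± 0.24). CD5 and BLK were the 2 genes that fell among 4 tested on the list of gamma-delta-like T cell genes. CD5, CD6 and THEMIS held without any single library, and CD6 lost the call when 4 cytotoxic genes were asked for, and, like BLK, with only barcodes holding fewer than 3 stromal UMIs. ICOS lost the call without any of the 4 libraries, CD8B without either 1797 library or control library 1, BCL11B without 1797 library 2 or either control library, and BLK without 1797 library 2 or control library 1.

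No granule gene passed the adjusted test between the populations. Of 17 cytotoxic granule and death ligand genes tested 0 were called, with a median of -0.002, and 7 had an unadjusted p under 0.05, against 897 of all 7497 genes. GZMB, granzyme B, stood at 29.0, 46.6, 9.44 and 8.55 CPM against 45.8, 86.6, 38.5 and 45.7 CPM, a log2 fold change of -1.25 ± 0.30 (edgeR adjusted p = 0.079). GZMM stood at 25.0, 23.3, 34.6 and 2.85 CPM against 52.8, 43.3, 55.8 and 48.3 CPM (edgeR adjusted p = 0.158). GZMB and GZMM were the lower in NK in 4 of 4 libraries. Of 11 cytokine and chemokine genes 0 were called (median 0.15), and IFNG stood at 25.0, 38.8, 24.1 and 19.95 CPM against 21.0, 33.4, 21.0 and 14.4 CPM. Of 25 transcription factors 0 were called (median 0.17). ZBTB16, the PLZF factor of innate lymphocytes, came nearest, at 221, 285, 203 and 359 CPM against 186, 98.0, 129 and 103 CPM (log2 fold change 1.04 ± 0.22, edgeR adjusted p = 0.0523). EOMES stood at 16, 10.4, 57.7 and 54.2 CPM against 17.1, 13.7, 31.9 and 20.6 CPM, higher in NK in the control libraries and not in the 1797 libraries. No gene was called on the interferon response (27 tested), immediate early (35), cell cycle (18), glycolysis (24) and checkpoint (8) lists.

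The largest fold changes outside the lists included receptors with no place in the selection. PTGER3, a receptor for prostaglandin E2, stood at 75.0, 114, 134 and 248 CPM against 36.9, 25.8, 48.4 and 39.2 CPM, a log2 fold change of 1.82 ± 0.24. PLXNC1, a semaphorin receptor, stood at 105, 269, 144 and 197 CPM against 49.7, 46.3, 56.4 and 52.6 CPM, a log2 fold change of 1.70 ± 0.22 (edgeR adjusted p = 0.00517). Neither gene overlapped between the populations, and both kept the call in all 16 alternatives. IGF1R, the receptor of insulin-like growth factor 1, stood at 82.0, 54.4, 74.4 and 123 CPM against 31.9, 12.2, 25.5 and 17.6 CPM (log2 fold change 1.92 ± 0.25). RNF150 rose by 3.34 ± 0.49 on the log2 scale, CCDC138 by 2.70 ± 0.35, SPINT2 (a serine protease inhibitor) by 2.03 ± 0.34 and PDE1C (a phosphodiesterase) by 1.84 ± 0.26. IGF1R lost the call when 4 cytotoxic genes were asked for, RNF150 without 1797 library 2, CCDC138 and PDE1C without control library 1, and SPINT2 without 1797 library 2 or either control library.

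The genes that fell furthest outside the T cell list were not all lymphocyte genes. CEMIP, a hyaluronan-binding protein of stromal cells, stood at 5.00, 0, 5.24 and 28.5 CPM in NK sums and at 129, 18.2, 7.19 and 264 CPM in CD3-positive cytotoxic sums, a log2 fold change of -3.37 ± 0.48. C9H1orf186 had a log2 fold change of -2.46 ± 0.33, WWTR1 (the TAZ coactivator) of -2.21 ± 0.46, SLIT2 (a secreted guidance protein) of -2.14 ± 0.34 and SORL1 (a sorting receptor) of -1.71 ± 0.32. CEMIP, C9H1orf186 and WWTR1 lost the call when called doublets were removed. WWTR1 also lost it without 1797 library 2 or either control library, SLIT2 without library 1 of either group, and SORL1 without either 1797 library or control library 2.

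**Figure D3:**
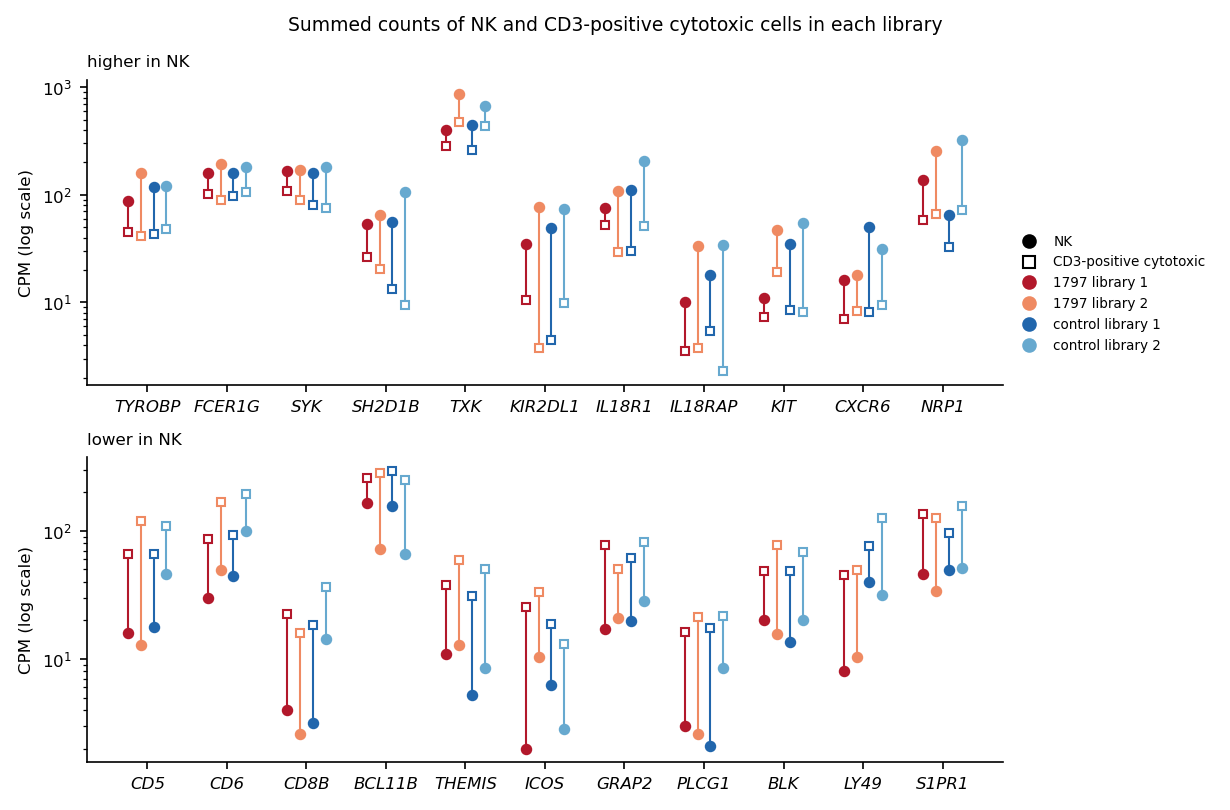
CPM (log scale) in NK sums (filled circles) and CD3-positive cytotoxic sums (open squares) for genes called higher (top) or lower (bottom) in NK, with a line joining the sums of the same library. In each gene shown the 4 lines run the same way, from 45.1 to 87.0 CPM for TYROBP and from 65.3 to 16 CPM for CD5 in 1797 library 1.

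Barcodes with a single CD3 UMI show how the values ran across the CD3 threshold. There were 246 such cytotoxic barcodes, 95, 22, 96 and 33 by library, and the UMI was of CD3G in 156 of them, CD3E in 72 and CD3D in 18. The other 1147 CD3-positive cytotoxic barcodes held at least 2 CD3 UMIs. These values are given as a description, since CD3 defined the classes and the classes differ somewhat in depth. TYROBP stood at 97.4, 120, 93.4 and 86.8 CPM in barcodes with 1 CD3 UMI and at 24.4, 30.2, 34.7 and 43.4 CPM in those with at least 2, so that the class with 1 lay near the NK values of 87.0 to 161 CPM. FCER1G was at 151, 108, 124 and 177 CPM with 1 and at 82.4, 86.3, 91.7 and 98.8 CPM with at least 2. KIR2DL1 did not behave so, at 6.86, 0, 12.2 and 36.7 CPM with 1 CD3 UMI, close to the 3.18 to 11.9 CPM with at least 2 in all libraries but control library 2.

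NCR1 and KLRB1 lay between the outer classes in barcodes with 1 CD3 UMI. NCR1 stood at 114, 133, 114 and 164 CPM in these, at 68.3, 63.0, 33.6 and 42.4 CPM with at least 2, and at 230 CPM or more in NK sums. It was seen in 51.5% of NK barcodes, 37.8% of those with 1 CD3 UMI and 19.4% of those with at least 2. KLRB1 was seen in 58.0%, 38.2% and 11.2%. The T cell gene CD5 stood at 13.7, 31.6, 20.3 and 83.4 CPM with 1 CD3 UMI, against 85.6, 130.3, 73.6 and 113 CPM with at least 2. CD6 stood at 28.8, 63.3, 35.2 and 110 CPM with 1 and at 109, 183, 103 and 201 CPM with at least 2. Beside the NK sums, the class with 1 CD3 UMI was close in 1797 library 1 and control library 1 for both genes, and higher in 1797 library 2 and for CD5 in control library 2. When the CD3-positive population was restricted to barcodes with at least 2 CD3 UMIs, 154 genes were called against NK in edgeR at an adjusted p under 0.05, with 98 of the 104 among them.

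**Figure D4:**
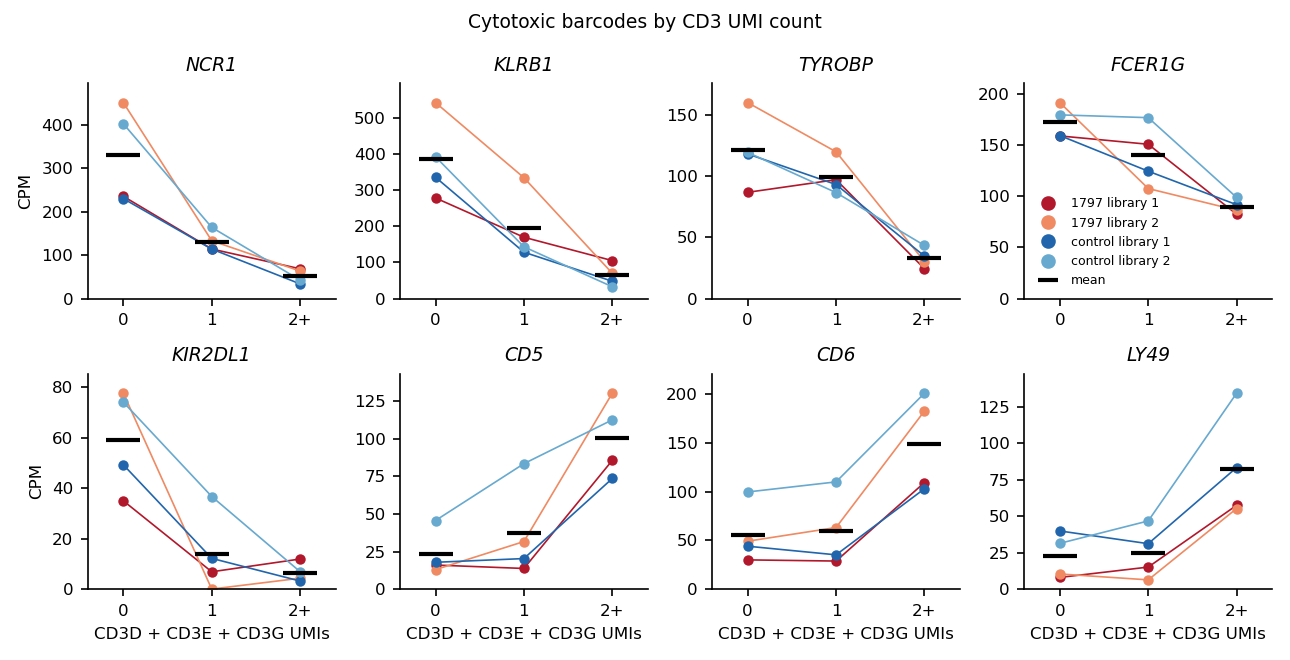
CPM of 8 genes in cytotoxic barcodes with 0 (the NK barcodes), 1 or at least 2 UMIs of CD3D, CD3E and CD3G together, with a line for each library and a black bar for the mean of the 4 libraries. In every library NCR1, KLRB1, TYROBP and FCER1G are lowest and CD5, CD6 and LY49 highest at 2 or more, while KIR2DL1 is high at 0 in every library (35.0 to 77.7 CPM).

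NK barcodes with and without an NCR1 UMI were compared within libraries, since pig NK cells are known to fall into NKp46-positive and NKp46-negative cells. The NCR1-detected barcodes numbered 190 (51, 40, 72 and 27 by library) and the others 179 (85, 12, 64 and 18). The share with NCR1 was 37.5%, 76.9%, 52.9% and 60.0%, lowest in 1797 library 1 and highest in 1797 library 2. A barcode without an NCR1 UMI may still express the gene, and the NCR1-detected barcodes were deeper in each library (medians of 7025, 7368, 7124.5 and 8617 UMIs against 6293, 6769.5, 6728.5 and 4699.5). The rule also asked for only 2 further genes where NCR1 was seen and for 3 where it was not, which by itself raises the share of the other cytotoxic genes in the NCR1-undetected barcodes.

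The genes of the rule nevertheless differed among themselves in how often they were seen with NCR1. KLRB1 was seen in 140 of 190 NCR1-detected barcodes (73.7%) and in 74 of 179 others (41.3%), against the direction that the rule favours. GNLY was seen in 57.4% and 82.7%, PRF1 in 60.5% and 68.2% and NKG7 in 74.2% and 78.2%. Outside the rule, KLRF1 was seen in 22 and 1 barcodes, EOMES in 40 and 10, XCL1 in 65 and 31, and TYROBP in 111 and 67. After thinning to 1000 UMIs, EOMES was seen in 4.74% and 0.562%, TYROBP in 15.3% and 5.06%, and XCL1 in 7.37% and 6.74%.

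No gene passed the adjusted test of NCR1-detected against NCR1-undetected sums. In edgeR's quasi-likelihood test with library as a term 0 of 4503 genes were called in either direction (0% each), the smallest adjusted p was 0.0885, and 314 genes (6.97%) had an unadjusted p under 0.05. DESeq2 called 10 genes, and edgeR called 4 without control library 2. Stromal markers were lower with NCR1 in 4 of 4 genes tested (median log2 fold change -1.56). With only barcodes holding fewer than 3 stromal UMIs, edgeR called GRIK2 (log2 fold change 3.54, adjusted p = 0.00553) and ARHGAP24 (3.19, 0.00189). Control library 2 then held 9 barcodes with NCR1 and 11 without. Beyond such fits, the part of stromal transcripts in these values was not tested. KIR2DL1 stood at 88.2, 82.0, 82.3 and 103 CPM with NCR1 and at 0, 61.5, 7.16 and 9.26 CPM without, a log2 fold change of 3.18 ± 0.72 (SE, n = 4 libraries, edgeR adjusted p = 0.215). IL18R1 stood at 161, 125, 140 and 288 CPM with NCR1 and at 19.9, 49.2, 74.0 and 18.5 CPM without (log2 fold change 2.08 ± 0.43, edgeR adjusted p = 0.151, called by DESeq2 with adjusted p = 0.0493). LYST, a regulator of lytic granules, stood at 204, 423, 507 and 482 CPM against 108, 271, 184 and 176 CPM (log2 fold change 1.12 ± 0.23, edgeR adjusted p = 0.151, DESeq2 0.0493). The value with NCR1 was the higher in 4 of 4 libraries for each of these 3 genes. With at least 4 of the 7 cytotoxic genes asked for, edgeR called KIR2DL1 (adjusted p = 0.00144), IL18R1 (0.0269) and LYST (0.0195), among others. The NCR1-undetected barcodes then numbered 48, 6, 28 and 4. With fewer than 3 HBB UMIs per barcode edgeR called IL18R1 alone of the 3 (adjusted p = 0.0225).

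Other genes leaned the other way or were not on the lists. MAF, a transcription factor of several lymphocyte types, stood at 32.7, 36.1, 22.4 and 8.24 CPM with NCR1 and at 91.2, 197, 85.9 and 27.8 CPM without (log2 fold change -1.91 ± 0.37, edgeR adjusted p = 0.151). GRIK2, a glutamate receptor subunit chosen after its value was seen, had the smallest p, at 365, 266, 43.0 and 478 CPM with NCR1 and 44.8, 0, 16.7 and 9.26 CPM without (log2 fold change 3.204 ± 0.485, edgeR adjusted p = 0.0885, DESeq2 0.000775). RNF150, which was higher in NK than in CD3-positive cytotoxic sums, was on the NCR1-undetected side, at 2.52, 19.7, 0 and 70.0 CPM with NCR1 and 34.8, 430, 162 and 204 CPM without (log2 fold change -3.63 ± 0.63, edgeR adjusted p = 0.151, DESeq2 0.000208). Of the 21 adaptor and kinase genes tested, 18 had a fold change above 0 and 3 below, with a median of 0.35 against -0.009 over all genes, and 0 were called. SH2D1B stood at 88.2, 75.4, 74.8 and 152 CPM with NCR1 and 31.5, 24.6, 31.0 and 0 CPM without (edgeR adjusted p = 0.335). TYROBP was at 108, 151, 135 and 128 CPM and at 73.0, 197, 97.9 and 101.8 CPM, which overlapped.

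Between the peptide groups no gene of the NK sums passed the adjusted test. In edgeR's quasi-likelihood test of 2 against 2 libraries 0 of 6346 genes were called higher (0%) and 0 lower (0%), and the smallest adjusted p was 0.778. At an unadjusted p under 0.05 there were 228 genes (3.59%), and DESeq2 called 1 gene, SLA-1. Without 1797 library 1 edgeR called 38 genes, without 1797 library 2 it called 118, and without control library 1 it called 1. Among the 38 were TCF4, BLNK and FLT3, genes of dendritic or B cells named here after their values were seen, together with ARHGAP24, TBC1D4 and FRMD4B. TCF4 stood at 624, 33.7, 40.9 and 884 CPM and BLNK at 44.0, 2.59, 7.34 and 225 CPM in the NK sums of the 4 libraries, high in 1797 library 1 and control library 2. B and dendritic marker sums were also highest in control library 2. Stromal markers had a median log2 fold change of 2.37 over the 5 genes tested, with 4 of them above 0. The part of stromal, B and dendritic transcripts in the fits made with 1 library left out was not tested. The SLA-1 gene (chromosome 7, 22824137 to 22920154), which encodes a classical major histocompatibility complex class I chain, stood at 1220 and 1737 CPM in the 1797 libraries and at 614 and 513 CPM in the control libraries. The groups did not overlap, and the log2 fold change was 1.42 ± 0.25 in edgeR (adjusted p = 0.778) and 1.45 in DESeq2 (adjusted p = 0.00303). SLA-1 is highly polymorphic with near-identical relatives, so the assignment of its reads to this gene is uncertain.

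The genes with the smallest unadjusted p are given as values and not as calls. ADAM12, a metalloprotease, stood at 54.0 and 59.6 CPM in the 1797 libraries and 5.24 and 2.85 CPM in the control libraries (log2 fold change 3.64 ± 0.56), and at a log2 fold change of 2.94 without the barcodes holding at least 50 stromal or HBB UMIs. TIAM2, an exchange factor for the GTPase Rac, stood at 138 and 124 CPM against 47.2 and 28.5 CPM (1.77 ± 0.38), LANCL2 at 543 and 531 CPM against 204 and 285 CPM (1.20 ± 0.27) and TRIM25, a ubiquitin ligase of antiviral RNA sensing, at 238 and 217 CPM against 97.5 and 105 CPM (1.22 ± 0.29). UBXN2B stood at 44.0 and 46.6 CPM against 12.6 and 5.70 CPM. TIMP1, an inhibitor of metalloproteases that stromal cells make in quantity, stood at 367 and 225 CPM against 76.5 and 96.9 CPM. Its log2 fold change fell from 1.86 ± 0.35 to 0.78 without the barcodes holding at least 50 stromal or HBB UMIs, and the stromal marker list had a higher summed level in 1797 library 1. EPHA4, an ephrin receptor, stood at 71.0 and 20.7 CPM against 2.10 and 2.85 CPM, and its log2 fold change was 4.32 ± 0.86, or 4.02 without the same barcodes. With only barcodes holding fewer than 3 stromal or fewer than 3 HBB UMIs, ADAM12 and EPHA4 did not pass the filter on low counts. Their values under these stricter versions are therefore not known.

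Lower in the 1797 libraries by the same rule were MT-2B, a metallothionein, TBC1D4, EOMES and 5 other genes. MT-2B stood at 5.00 and 12.9 CPM against 68.2 and 103 CPM in the control libraries (log2 fold change -3.34 ± 0.57, edgeR adjusted p = 0.778). TBC1D4, a regulator of glucose transporter traffic, stood at 19.999 and 12.9 CPM against 73.4 and 231 CPM (-3.01 ± 0.61), and at -1.87 with only barcodes holding fewer than 3 stromal UMIs. EOMES (chromosome 13, 14209590 to 14216184) stood at 16 and 10.4 CPM against 57.7 and 54.2 CPM, a log2 fold change of -1.95 ± 0.47, and the value lay between -2.02 and -1.85 in the 3 versions without barcodes carrying stromal or HBB transcripts. The other genes were CNTRL (-2.65 ± 0.56), FRMD4B (-2.77 ± 0.60), FRMPD4 (-2.51 ± 0.62), PDE1C (-1.64 ± 0.40) and FOLR1 (-2.36 ± 0.66). FRMD4B stood at -4.09 with only barcodes holding fewer than 3 HBB UMIs, while FRMPD4 stood at -3.11 and FOLR1 at -1.74 with only those holding fewer than 3 stromal UMIs. The groups did not overlap for any of the 16 genes, which the rule required.

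**Figure D5:**
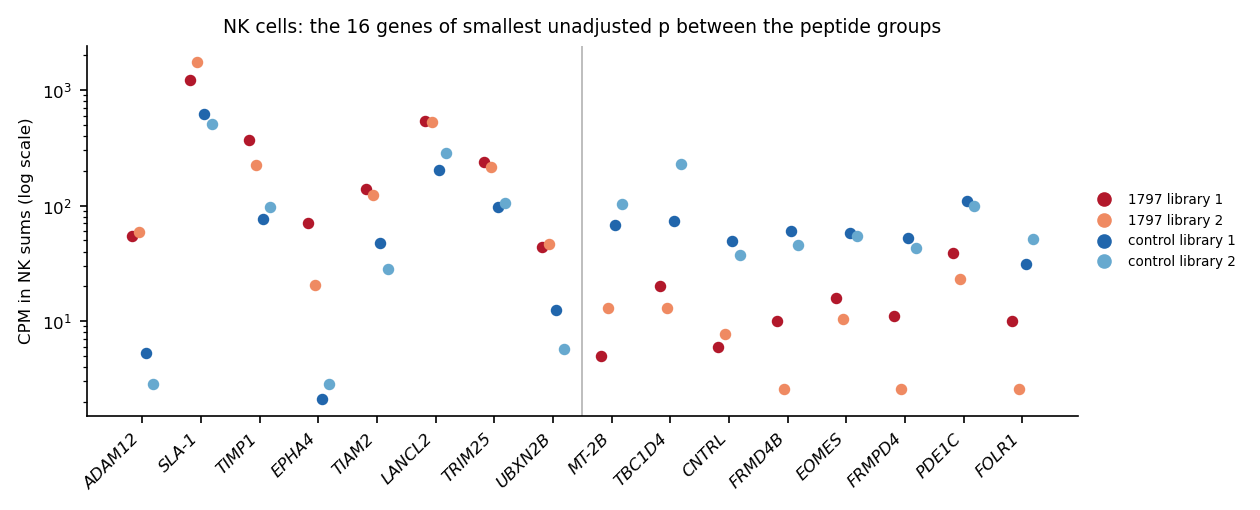
CPM (log scale) in the NK sums of each library for the 8 genes higher (left of the line) and the 8 genes lower (right) in the 1797 group with the smallest unadjusted p and a mean of at least 20 CPM. The groups are apart by the choice of genes, and no gene passed the edgeR test after adjustment (smallest adjusted p 0.778).

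Effector genes of the NK lists gave no calls between the peptide groups. In all, 12.8% of the genes tested lay higher in both 1797 libraries than in both control libraries, and 17.4% lay lower in both. Of 18 granule and death ligand genes, 5 lay higher and 1 lower in this sense, with a median log2 fold change of 0.13 against -0.004 over all genes. GZMB stood at 29.0 and 46.6 CPM in the 1797 libraries against 9.44 and 8.55 CPM (log2 fold change 2.03 ± 0.57, edgeR adjusted p = 0.999), and GZMH, granzyme H, at 316 and 337 CPM against 222 and 205 CPM (0.65 ± 0.26, edgeR adjusted p = 0.999). Of 11 cytokine genes 3 lay higher and 0 lower. LTB, lymphotoxin beta, stood at 22.0 and 25.9 CPM against 6.29 and 5.70 CPM, and XCL1 at 79.0 and 111 CPM against 41.9 and 62.7 CPM. Of 24 cytokine receptor genes 6 lay higher and 4 lower, among them IL2RB, at 932 and 917 CPM against 725 and 456 CPM.

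Receptor, adaptor and response lists gave no calls either. Of 14 NK receptor genes 0 lay higher and 2 lower (median -0.27), and of 22 adaptor and kinase genes 4 lay higher and 2 lower (median 0.05). TYROBP, the leading gene against CD3-positive cytotoxic sums, stood at 87.0 and 161 CPM in the 1797 libraries and 118 and 120 CPM in the control libraries, and KIR2DL1 at 35.0 and 77.7 CPM against 49.3 and 74.1 CPM, so both overlapped. Of 25 transcription factors 5 lay higher and 4 lower, of 18 homing genes 1 and 4, of 22 interferon response genes 3 and 1 (median 0.16) and of 35 immediate early genes 6 and 1 (median 0.18). CXCR6 was among the lower homing genes, at 16 and 18.1 CPM against 50.3 and 31.4 CPM. The 10 T cell identity genes tested had 1 higher and 3 lower, with a median of -0.43.

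The difference between the peptide groups was itself compared between NK and CD3-positive cytotoxic sums with an interaction term. Of 8509 genes 0 had a higher difference in NK (0%) and 1, ARHGAP24, a lower one (0.0118%), while 381 had an unadjusted p under 0.05, and DESeq2 called the same single gene. Without control library 1 there were 55 calls, without control library 2 there were 36, without 1797 library 1 there were 2 and without 1797 library 2 there were 0. ARHGAP24 (chromosome 8, 132761967 to 133506065), which encodes a GTPase-activating protein for Rac, stood at 155 and 12.9 CPM in the NK sums of the 1797 libraries and at 385 and 248 CPM in those of the control libraries. In the CD3-positive cytotoxic sums it stood at 134 and 9.11 CPM in the 1797 libraries and at 43.7 and 22.2 CPM in the control libraries. In NK sums the groups did not overlap, while in CD3-positive sums the 1797 libraries lay on both sides of the control libraries. The interaction was -2.95 ± 0.34 on the log2 scale (edgeR adjusted p = 0.0223). The call was lost without 1797 library 1 (-2.74), without 1797 library 2 (-2.96), with a replicate block (-2.88) and with only barcodes holding fewer than 3 stromal UMIs (-2.37).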

How the data were processed

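Droplet libraries of 4 samples, 2 per peptide group by title, were analysed. The authors deposited raw UMI counts per gene and barcode as filtered matrices. The submitters' processing notes name Cell Ranger 5.0.0 and Sscrofa11.1, while the file headers name Cell Ranger 7.0.1, and the difference was not resolved. Raw counts of the selected barcodes were summed per library. They were tested with edgeR 4.0.16 (quasi-likelihood, TMM, Benjamini-Hochberg adjustment, filter on low counts), with DESeq2 1.42.0 as an alternative. NK and CD3-positive cytotoxic sums, and the NCR1 classes, were compared with library as a term, and the peptide groups without a block. The genes of the rule were not tested where the rule used them. Scrublet (scanpy 1.11.5, expected rate 0.1) called doublets, which were kept in the main values. To compare shares across depths, barcodes with at least 1000 UMIs were thinned to that number, and shallower ones were left out. The code was tested on simulated data. Named genes were, per comparison and direction, the up to 10 called genes with the largest fold change, a log2 fold change of 1 or more in size, a mean of at least 20 CPM and the same direction in every library, leaving out unnamed and ribosomal genes. Detected genes of the 15 lists and the 15 genes of the rule could also be named. For the peptide groups they were the up to 8 genes per direction with the smallest unadjusted p, a mean of at least 20 CPM and groups apart. The members and lists were chosen with earlier results of these data known. Versions without barcodes that carry stromal or HBB transcripts were chosen after seeing the data. The labels do not say what a replicate number marks.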

Additional observations from a re-analysis of the deposited data

Results flagged for a closer look

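The peptide difference of ARHGAP24 was lower in NK sums than in CD3-positive cytotoxic sums by -2.95 on the log2 scale in a test of the difference itself (edgeR interaction term). ARHGAP24 stood at 155 and 12.9 CPM against 385 and 248 CPM in NK sums, and at 134 and 9.11 CPM against 43.7 and 22.2 CPM in CD3-positive cytotoxic sums.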

How the results depend on the processing

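The difference in NK share stayed within the spread between libraries, from -0.115 to 0.138 percentage points under other selections and from -0.302 to 0.388 with 1 library left out. Between the peptide groups the 0 calls became 1 in DESeq2 and 127 with no filter on low counts, and 0 to 118 with 1 library left out. The replicate block gave 0. For NK against CD3-positive cytotoxic sums the 104 calls became 166 in DESeq2, 394 with no filter, 55 with at least 4 of the 7 genes, 51 after thinning, 167 with fewer than 3 HBB UMIs, 164 with fewer than 50 stromal and 50 HBB UMIs, 27 with no replicate block (no library term), and 38 to 100 with 1 library left out. For the NCR1 classes the 0 calls became 10 in DESeq2, 109 with no filter, 22 with at least 4 of the 7 genes, 3 after thinning, 2 with fewer than 3 stromal UMIs, 5 with fewer than 3 HBB UMIs, 1 with fewer than 50 of either, and 0 to 4 with 1 library left out. For the interaction the 1 call became 47 with no filter, 3 with at least 4 of the 7 genes, 3 with fewer than 3 HBB UMIs, 0 with the replicate block, and 0 to 55 with 1 library left out. The cause was not tested. Of the fold changes of named genes under the alternatives, 472 kept the call, 118 lost it and 0 reversed. For NK against CD3-positive cytotoxic sums, 13 of the 39 named genes kept the call whichever library was left out. Only 7 kept it under every alternative in which they could be tested, and 21 lost it with no library term. The labels do not say that a shared replicate number marks a shared animal or day, so the numbers were not taken as pairs. The correlation of same-numbered libraries' deviations in NK gene levels was -0.054. Same-numbered libraries were alike in NK share, at 1.09% and 1.01% for library 1 and 0.396% and 0.380% for library 2. They were also alike in NK barcodes with at least 3 HBB UMIs, at 44 and 41 against 1 and 1. TCF4 in contrast was high in 1797 library 1 and control library 2. What the numbers mark was not tested. With 45 to 136 NK barcodes per library, many genes with few UMIs could not be compared. The fold changes of others, such as PLCG1, rest on few UMIs.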
